A study of Mus musculus with 7 samples.

Results

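The 300 broadest H3K4me3 domains of F123 mouse embryonic stem (ES) cells were taken from 21281 H3K4me3 runs on the 19 autosomes of mm9. A run was a row of 1 kb bins that each held over 5 times the autosomal mean of distinct alignments, with single missing bins bridged, and the domains were the longest runs, with ties settled by alignment count. F123 cells are hybrid and carry 1 genome each of the CAST and 129 mouse strains. H3K4me3 and H3K27ac were profiled in F123 cells and H3K27ac also in J1, an ES cell line of the 129 strain, and poly(A)+ RNA was sequenced from 4 F123 clones. The clones were wild type (CAST+/129+), monoallelic for a deletion of the distal super-enhancer downstream of Sox2 on the 129 allele (CAST+/129-) or on the CAST allele (CAST-/129+), or biallelic for it (CAST-/129-). The deletion was made with CRISPR/Cas9, and each genotype was represented by a single clone that had recovered on feeder cells before passages on gelatin. Each condition had 1 library, 7 in all, so that no difference between conditions could be tested.

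H3K4me3 is a methylation mark of histone H3 that is laid down at gene starts, mostly as a narrow peak where unmethylated CpG-rich DNA recruits the methyltransferase complexes. At a minority of genes it spreads far into the transcribed region, and such broad domains are known for genes that define a cell type. H3K27ac is an acetylation mark of active promoters and enhancers, so that its level in a domain is a separate measure of activity there.

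The 200 bases before the annotated start of 5 genes are shown first, chosen as examples from domains with high and with low H3K27ac. Each sequence was read from mm9 and is written 5′ to 3′ in the direction of transcription, with every CpG in capitals. Sox2 and Klf4 are pluripotency factors whose RNA fell in the biallelic clone, and Zfp36l1 codes for an RNA-binding protein. Egr3 and Wnt11 lay in domains with very little H3K27ac. The windows were chr3:34548727-34548926 on the plus strand (Sox2), chr4:55545348-55545547 on the minus strand (Klf4), chr12:81214001-81214200 on the minus strand (Zfp36l1), chr14:70477052-70477251 on the plus strand (Egr3) and chr7:105983422-105983621 on the plus strand (Wnt11). All 5 lay inside their domain and overlapped no annotated exon.
Sox2: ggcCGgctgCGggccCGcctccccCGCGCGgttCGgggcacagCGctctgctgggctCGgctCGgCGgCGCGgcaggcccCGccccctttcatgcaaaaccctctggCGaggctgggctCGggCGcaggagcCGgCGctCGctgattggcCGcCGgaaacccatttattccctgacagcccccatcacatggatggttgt
Klf4: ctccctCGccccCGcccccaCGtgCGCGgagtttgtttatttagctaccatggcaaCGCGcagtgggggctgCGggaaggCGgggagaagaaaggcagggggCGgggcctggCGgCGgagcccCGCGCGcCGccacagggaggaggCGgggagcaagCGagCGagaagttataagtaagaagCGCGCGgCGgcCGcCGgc
Zfp36l1: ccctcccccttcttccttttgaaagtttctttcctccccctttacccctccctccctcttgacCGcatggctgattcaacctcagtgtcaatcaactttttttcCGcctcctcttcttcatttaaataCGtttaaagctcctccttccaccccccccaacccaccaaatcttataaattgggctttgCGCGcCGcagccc
Egr3: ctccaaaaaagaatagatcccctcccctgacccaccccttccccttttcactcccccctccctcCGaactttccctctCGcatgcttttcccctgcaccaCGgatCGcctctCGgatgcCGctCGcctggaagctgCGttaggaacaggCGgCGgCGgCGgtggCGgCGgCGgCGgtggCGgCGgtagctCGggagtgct
Wnt11: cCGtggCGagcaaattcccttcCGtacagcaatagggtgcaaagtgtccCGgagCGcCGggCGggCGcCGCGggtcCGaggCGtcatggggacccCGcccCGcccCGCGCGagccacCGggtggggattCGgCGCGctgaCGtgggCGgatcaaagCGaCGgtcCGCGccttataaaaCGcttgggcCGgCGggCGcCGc
These windows held 22 CpG in Sox2, 25 in Klf4, 6 in Zfp36l1, 19 in Egr3 and 32 in Wnt11. Dense CpG was thus present in domains with high and with low H3K27ac. The window of Zfp36l1 was the poorest of the 5, although its domain ran for 8 kb. Across 336 protein-coding genes that started in the domains, repeat-rich domains left out, the median was 13 CpG in the upstream 200 bases, against 7 over all 21413 protein-coding genes. A GC box, GGGCGG on either strand, was present in the window of 60.7% of those genes and of 38.2% of all protein-coding genes. All protein-coding genes include those without an H3K4me3 run at their start. Genes of shorter runs were not counted apart, so these values do not set broad domains apart from other H3K4me3 runs.

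The domains were 5 to 77 kb long with a median of 5 kb. They comprised every run of at least 6 kb, 141 in number, and 159 of the 175 runs of 5 kb. Together they covered 1856 kb, or 0.0751% of the autosomal bins, and held 99058 alignments, or 1.43% of those on the autosomes. The values that chose them had no sharp edge. The last domain, at Kctd11, held 94 alignments, and the next run in order, at Mmp9, was also 5 kb long and held 92. By the values that chose them, the median domain held 15.6 times the mean H3K4me3 per kb against 19.6 times in the next 300 runs and 17.8 times in the other runs of at least 2 kb. Here and below, these 8366 other runs of at least 2 kb include the next 300. The median of the highest bin was 35.3 times the mean in the domains, 39.6 times in the next 300 and 25.3 times in the others. Chromosome 11 had the most domains (33), chromosome 17 had the most for its length (31 domains, 3.25 per 10 Mb), and chromosome 13 had the fewest (4).

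Of the 300 domains, 263 contained the start of a protein-coding gene, 8 only the start of another kind of gene, 12 lay in a gene body without a start and 17 between genes. Exactly 1 protein-coding gene started in 190 domains, 2 started in 63 domains, and 37 domains held none. The pairs of genes were head to head in 36 domains, on the same strand in 15 and with starts facing each other in 12. In all, 454 annotated genes started in the domains. The 410 of them with at least 200 countable bases, 348 of which were protein-coding, were measured by RNA-seq. The domains that lacked a start included a 10 kb run within Prrc2b, 7399 bases from its start, with H3K27ac at 73.0-fold over the mean in F123 cells. Another was an 8 kb run on chromosome 17, 13659 bases from the start of Rab12, with H3K27ac at 92.1-fold. Both were chosen after their values were seen. Of the 29 domains without any start, 16 were over 5-fold for F123 H3K27ac and 13 were not.

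Repeats accounted for several of the longest runs. In 9 domains at least 50% of the 36-base windows occurred again in the genome, including runs of 24 and 11 kb at the start of chromosome 9, 4 runs on chromosome 8 and a 6 kb run with Gm10800 and Gm10801 on chromosome 2. The longest domain of all, 77 kb on chromosome 11, spanned Sfi1, a centrosome protein gene, and Pisd-ps1, and 16.03% of its windows were repeated. These 10 domains with 22 measured genes are given apart below. The 9 were set apart because alignments to near-identical copies cannot be placed with certainty, and the 77 kb domain for its length alone, since domains with up to 48.3% repeated windows were kept. The highest H3K4me3 was 183-fold in a 7 kb domain at AY036118 on chromosome 17, where J1 H3K27ac also had its highest value of 130-fold. In that domain 17.9% of windows were repeated, and it was kept. Copies absent from mm9 are not counted by this measure. No input library was used, so the part of copy number in these 2 values was not tested.

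Away from those repeats, the longest domains lay at regulators of transcription, chromatin and mRNA. A 12 kb domain spanned the start of Zbtb7a, a zinc finger repressor, where H3K27ac was 82.5-fold in F123 against 26.4-fold in J1. A domain of 12 kb covered the head-to-head starts of Setd1b, a methyltransferase of H3K4, and Rhof, a small GTPase, with 76.1-fold and 37.8-fold. Plekhg2 and Zfp36, which codes for an mRNA decay factor, shared a 12 kb domain with 30.3-fold and 24.7-fold. An 11 kb domain with the start of Akt1s1, which codes for an mTORC1 component, had 22.0-fold and 12.1-fold. The 11 kb domain of the nucleoside transporter Slc29a1 and Gm7325 had 59.8-fold and 24.99-fold. The 10 kb domain at Hic1, a transcriptional repressor gene that also neighbours Mir212 and Mir132, stood apart from these. H3K27ac there was 2.24-fold in F123 (exact 95% Poisson interval 1.23 to 3.76) and 1.76-fold in J1. Such intervals cover counting error only, here and below. A 10 kb domain within Gm13227 on chromosome 4 contained no start, and 32.02% of its 36-base windows were repeated.

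The broad domains carried high H3K27ac in both cell lines. The median was 24.3-fold over the autosomal mean in F123 cells (95% interval of the median over domains 20.8 to 28.4) and 12.7-fold in J1 cells. The next 300 runs had medians of 21.4-fold and 10.4-fold, and the other runs of at least 2 kb had 9.61-fold and 6.19-fold. The F123 median of the next 300 lay within the interval of the broadest. That interval covers the spread over domains of 1 library and no variation between libraries, so it does not test the difference. The F123 median of the broadest also depended on the run rule, as the broadest 300 had 43.2-fold with bins over 10 times the mean and 11.6-fold with gaps of up to 3 bins. H3K27ac was over 5-fold in 249 of 300 domains (83.0%) in F123, where 42.2% of all H3K4me3 runs passed, and in 239 (79.7%) in J1, where 38.5% passed. In the next 300 runs 259 and 234 passed. The broadest domains had the higher medians, while more of the next 300 runs passed 5-fold in F123. Within the 300, H3K4me3 per kb had a Spearman's rho of 0.59 with F123 H3K27ac, over regions of a single library for each mark. Length, whose range the rule itself cut, had 0.10 within the 300 and 0.41 over the 20981 other runs.

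**Figure D1:**
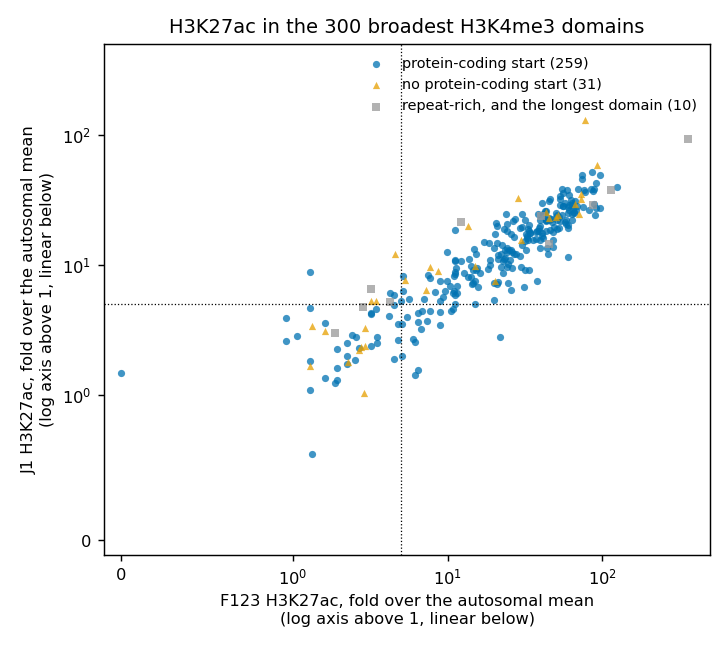
Each point is 1 of the 300 domains, with its F123 H3K27ac on the x axis and its J1 H3K27ac on the y axis, both as fold over the autosomal mean of the library, and dotted lines at 5-fold. Most points lie at the upper right, 231 domains being over 5-fold in both lines and 43 in neither.

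The order of the domains was much alike in the lines, with a Spearman's rho of 0.92 over the 300 domains, which are the same reference regions in both lines. F123 values were above J1 values in 250 of the 290 domains outside the repeats. The median log2 difference of fold plus 1 was 0.83, against 0.19 over the other runs. The F123 H3K27ac library held 1576875 distinct alignments and the J1 library 7743500, and with J1 thinned to the F123 depth its median was 12.8-fold and 237 domains passed 5-fold. The part of enrichment in this difference was not tested. Outside the repeats, the highest F123 H3K27ac was found at Pcbp1, an RNA-binding protein gene, with 124-fold against 39.9-fold in J1. The domain of Trim71, a ubiquitin ligase gene of the let-7 pathway, had 97.1-fold and 27.3-fold, and that of Mllt6, a chromatin factor gene, had 96.1-fold and 49.6-fold. Among pluripotency factors, Pou5f1, which codes for Oct4, had 90.7-fold and 43.1-fold, and Sox2 had 88.4-fold and 38.3-fold.

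At the other end, 43 domains were at or under 5-fold in both lines. They had less H3K4me3 per kb than the 231 acetylated domains (medians of 8.80-fold and 17.6-fold) but no fewer CpG (4.26 and 3.66 per 100 bases). Of the 43 domains, 32 contained a protein-coding start. The lowest value was at Wnt11, a Wnt ligand, where the 5 kb domain held 0 F123 H3K27ac alignments, which allows up to 0.961-fold, and 1.498-fold in J1. Next came the domains of Aloxe3, a lipoxygenase gene, and of Egr3, an early-response transcription factor gene, both with 0.961-fold in F123. Their J1 values were 3.91-fold and 2.61-fold. Fgf11, of the fibroblast growth factor family, had 1.07-fold and 2.88-fold. A further 5 domains tied at 1.28-fold in F123. They lay within Ksr2, at Sema6a, a guidance molecule gene with 1.11-fold in J1, at Nr3c2, the mineralocorticoid receptor gene with 1.82-fold, at Ppm1n and Rtn2 with 4.69-fold, and at Ano8 and Gtpbp3 with 8.79-fold. With that J1 value the domain of Ano8 and Gtpbp3 was not among the 43. Id2, Fst, Nfil3, Nrp2, Efna5 and Hic1 also had starts in the 43 domains, of which Nfil3, Nrp2 and Efna5 were chosen after their values were seen.

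Around gene starts the domains reached further into the gene than away from it. In 189 domains with 1 protein-coding start, a median of 1467 bases lay upstream and 3999 bases downstream of that start, and 148 domains (78.3%) were longer downstream. This asymmetry was not particular to the broad domains, as 80.4% of 6161 other runs of at least 2 kb were also longer downstream. Mean H3K4me3 peaked in the window centred 250 bases after the start, at 42.4-fold in the broad domains, 51.1-fold in the next 300 runs and 41.8-fold in the other runs of at least 2 kb. F123 H3K27ac peaked in the same window, at 62.1-fold in the broad domains, 61.6-fold in the next 300 runs and 30.6-fold in the others. J1 H3K27ac peaked there at 23.6-fold, 23.3-fold and 12.8-fold. Over the 5 kb after the start, mean F123 H3K27ac was 28.9-fold in the broad domains, 19.96-fold in the next 300 and 7.15-fold in the others.

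**Figure D2:**
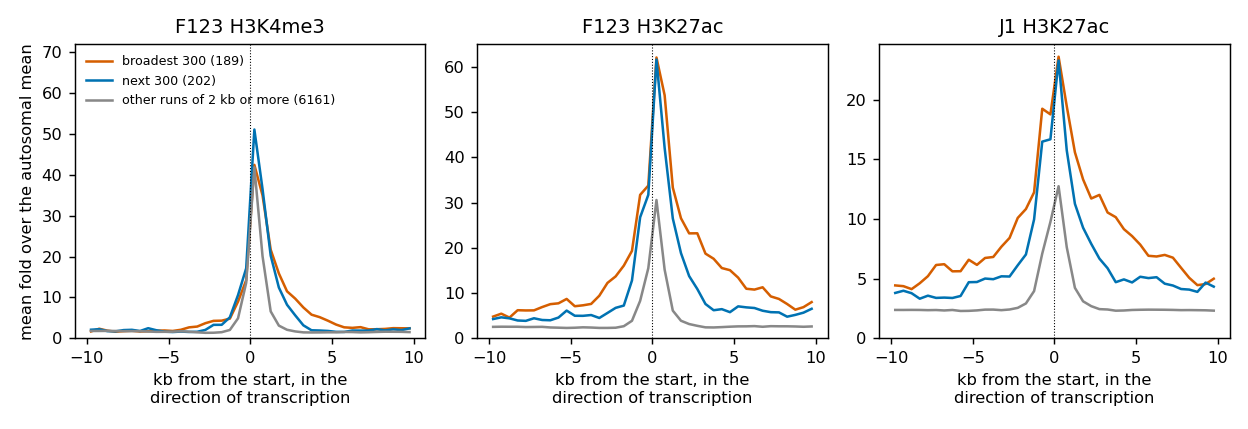
Mean fold over the autosomal mean in 500-base windows within 10 kb of the start, oriented in the direction of transcription, for H3K4me3 in F123 and H3K27ac in F123 and J1. Lines are 189 broad domains, 202 of the next 300 runs and 6161 other runs of at least 2 kb, which include the 202. Each had 1 protein-coding start. The 3 lines peak together just after the start. Over the 5 kb after the start F123 H3K27ac averages 28.9-fold in the broad domains and 19.96-fold in the next 300.

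The domains were less dense in CpG than the other runs of at least 2 kb, though denser than the genome. They held a median of 3.81 CpG per 100 bases, against 0.851 over the autosomal genome, 4.60 in the next 300 runs and 4.85 in the other runs of at least 2 kb. The highest density was 9.16 at Arid2, a gene of a chromatin remodelling subunit. At least 1 bin with over 50% G and C and a CpG ratio over 0.6 was present in 252 domains (84.0%), but 29.7% of their bins met these limits, against 43.1% in the next 300 runs and 46.4% in the other runs of at least 2 kb.

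Genes in the domains were well expressed in the wild type clone. The median FPKM, computed from distinct alignments, was 21.2 over 334 protein-coding genes outside the repeats, 19.98 over those of the next 300 runs, 9.05 over those of other runs and 0.0360 over those without a run. Over genes of every type, the 388 domain genes outside the repeats had a median of 16.9 FPKM and those of the next 300 runs 17.0, so that the medians were close. With the repeats kept in, the 410 domain genes had 15.7. Of the 334 genes, 229 (68.6%) had at least 10 FPKM and 32 (9.58%) under 1. Levels differed with the H3K27ac of the domain. Genes of domains over 5-fold in both lines had a median of 32.8 FPKM (267 genes), and genes of domains at most 5-fold in both had 3.12 (39 genes), 13 of them under 1. Spearman's rho with wild type FPKM over the 334 genes was 0.54 for F123 H3K27ac and 0.52 for H3K4me3 per kb.

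**Figure D3:**
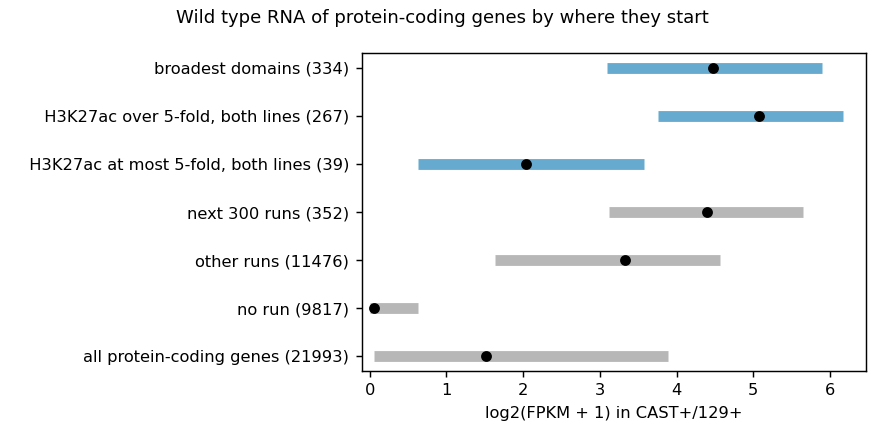
Quartile range (bar) and median (point) of log2(FPKM + 1) in the single wild type library for protein-coding genes, grouped by the H3K4me3 run in which they start, with the number of genes. Genes of broad domains with H3K27ac over 5-fold have a median of 32.8 FPKM, those at most 5-fold have 3.12 FPKM, and all protein-coding genes have 1.87 FPKM.

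Wnt11 had 0.465 FPKM in wild type, Egr3 0.110 from 4 alignments, Fgf11 0.859 and Hic1 0.569. These genes were thus close to silent under 5 to 10 kb of H3K4me3. At the acetylated end, Pcbp1 had 237 FPKM, Trim71 54.0 and Mllt6 31.0. Long domains were also found at genes of modest level, such as Zbtb7a with 11.02 FPKM and Setd1b with 8.98, and at Rhof with 0.630.

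The deletion was checked by Sox2 itself, whose 6 kb domain (chr3:34547001-34553000) ranked 72nd. Sox2 had 175 FPKM in wild type against 82.0 in CAST+/129-, 73.1 in CAST-/129+ and 7.40 in CAST-/129-, the order in which values of the 3 mutants are listed from here on. The biallelic clone thus kept 4.23% of the wild type level (exact 95% interval 3.46 to 5.13), and the monoallelic clones kept 46.9% and 41.8%. The ChIP-seq libraries came from cells without the deletion, so that the domains were not measured in the mutant clones.

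Some differences ran across whole libraries. Distinct alignments on genes numbered 24848422 in wild type and 12458881, 6058939 and 5831199 in the mutants. The 10 ES cell markers were detected in every clone, with a summed FPKM of 1823, 1584.5, 1488 and 1095 in that order. The 25 fibroblast markers summed to 388, 809, 876 and 2154, only Lum was at 0 in wild type and none in the mutants, and 8, 7 and 20 of them were up at least 3-fold in the mutants, as were 0.321%, 0.473% and 0.819% of all genes. The 12 trophectoderm markers matched summed to 54.5, 438, 685 and 644 with 5, 6 and 6 up, and the 12 primitive endoderm markers to 538, 267, 347 and 577 with 3 down in each mutant, as were 0.305%, 0.33% and 0.511% of all genes. No marker of these 3 other cell types started in a broad domain, where 410 of all 31498 measured genes did. Whether the markers differ from that share was not tested. Genes of chromosome 8 with a mean of at least 10 FPKM had a median log2 ratio of -0.32 in CAST-/129+ and -0.26 in CAST-/129-, where the medians of the other autosomes and the X lay between -0.07 and 0.05 and between -0.14 and -0.01. The part of these differences in the results below was not tested, and with bulk RNA fewer expressing cells cannot be told apart from less RNA per cell.

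Most genes of the broad domains differed little between the mutant clones and wild type. Of the 388 measured genes outside the repeats, 353 (91.0%), 346 (89.2%) and 342 (88.1%) were within 2-fold of wild type in the respective mutants, on the scale of FPKM plus 4 that is used for log2 ratios and for the 3-fold threshold. Of the 388 genes, 74 had under 1 FPKM in wild type and could not fall by 2-fold with 4 added. The share within 2-fold over all genes was not counted, so these percentages have no reference. Percentages of wild type are of FPKM as such. The median log2 ratio was 0.00, -0.02 and -0.02. Past a 3-fold threshold, 9 genes fell in CAST+/129- (2.32%, against 0.305% of all 31498 genes), 7 in CAST-/129+ (1.80%, against 0.33%) and 11 in CAST-/129- (2.84%, against 0.511%). Genes past 3-fold in the other direction numbered 3 in CAST+/129- (0.773%, against 0.321%), 4 in CAST-/129+ (1.03%, against 0.473%) and 6 in CAST-/129- (1.55%, against 0.819%). All 3 ratios use the same wild type library. The count of 9 depended on the settings. With gaps of up to 3 bins, 3 of 521 domain genes fell in CAST+/129-, and with 1 added to FPKM in place of 4, 14 fell. Many genes of the genome are too low to fall by 3-fold on this scale. Among genes with a mean of at least 10 FPKM, 11 of 238 domain genes fell in CAST-/129- (4.62%) against 1.68% of 7185 genes, and 6 rose (2.52%) against 2.55%.

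Of the 11 genes that fell in CAST-/129-, 6 were pluripotency factors, against 2 of 9 in CAST+/129- and 2 of 7 in CAST-/129+, where 15 of the 388 domain genes were on that list. The 6 include Sox2, the gene used above to check the deletion, and so do the counts of fallen genes in CAST-/129- below. Its log2 ratios were -1.06, -1.21 and -3.97, past 3-fold only in CAST-/129-. Of 37 pluripotency factors matched, 15 started in a broad domain, namely Sall4, Sox2, Klf4, Tbx3, Zfp42, Klf2, Nacc1, Sall1, Trp53, Mycn, Esrrb, Klf5, Zic2, Myc and Pou5f1. Their domains had a median of 41.0-fold F123 H3K27ac. In CAST-/129- 6 of the 15 fell at least 3-fold, where 2.84% of domain genes and 0.511% of all genes did, none rose and the median log2 ratio was -0.91, while in the monoallelic clones 2 and 2 fell and the medians were -0.50 and -0.84. Over the whole list of 37, 12 fell and 1 rose in CAST-/129-, with a median of -0.50. Nanog started in a 4 kb run at rank 576, and Dppa5a, the factor with the most RNA in wild type (461 FPKM), in a 1 kb run. Prdm14, Nr5a2, Foxd3, Dppa2, Dppa3 and Dppa4 had no autosomal run at a start.

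Klf4, a Krüppel-like activator of the naive state, had 120 FPKM in wild type against 19.3, 13.9 and 8.29 in the mutants. It was at 15.98% and 11.51% of wild type in the monoallelic clones and at 6.89% (5.81 to 8.10) in the biallelic clone. Tbx3, a T-box factor that supports self-renewal, had 101 FPKM in wild type and 18.6, 10.4 and 10.4 in the mutants in the same order. Both genes were thus already far below Sox2's own proportion of wild type in the monoallelic clones. Esrrb, an orphan nuclear receptor, had 89.9 FPKM in wild type and 51.3, 31.4 and 21.3 in the mutants. Only its biallelic ratio of -1.89 on the log2 scale was past the threshold.

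Zfp42, also known as Rex1, had 185 FPKM in wild type against 165, 101 and 52.3 in the mutants. Sall1, a zinc finger factor, had 75.8 FPKM in wild type and 39.1, 24.1 and 21.1 in the mutants. Both lie on chromosome 8, as do Klf2 and Nacc1, and the median of that chromosome was below those of all other autosomes and the X in both clones with the deletion on the CAST allele. Klf5, a further Krüppel-like factor, had 188 FPKM in wild type and 89.0, 73.1 and 66.8 in the mutants, a log2 ratio of -1.44 in CAST-/129- that did not reach 3-fold. Pou5f1 had 188 FPKM in wild type and 132, 207 and 163 in the mutants. Its 5 kb domain was among the most acetylated, and its RNA stayed within 2-fold in every clone. Myc had 20.7 FPKM in wild type and 40.8, 28.9 and 31.2 in the mutants, and Mycn had 26.5 and 35.0, 50.03 and 41.1. Both proto-oncogenes were thus higher in all mutant libraries without reaching 3-fold.

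**Figure D4:**
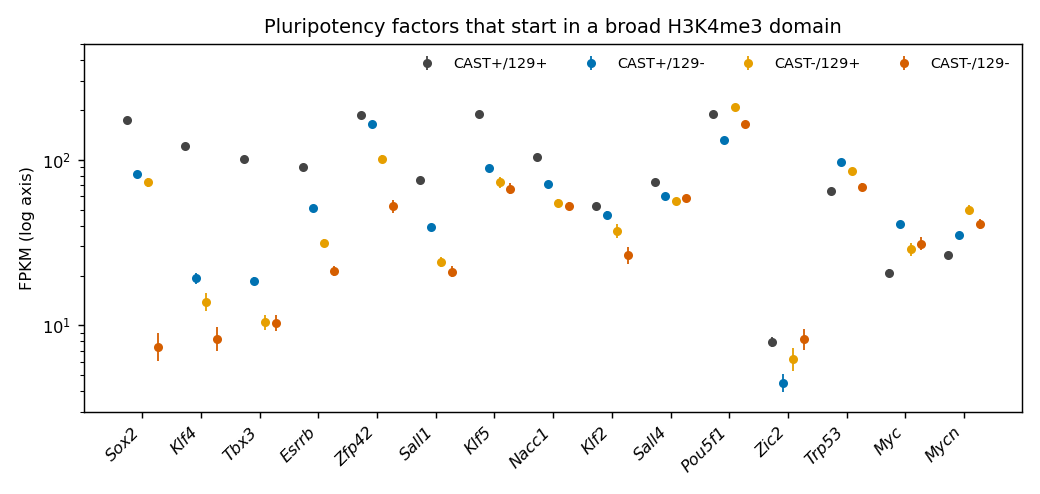
FPKM on a log axis in the 4 clones for the 15 pluripotency factors that start in a broad domain, ordered by their ratio in CAST-/129-, with exact 95% Poisson intervals for counting error. Sox2 falls from 175 to 7.40 FPKM at the left, and Trp53, Myc and Mycn at the right lie above wild type in all mutants.

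Most signalling genes of the domains did not pass the 3-fold threshold. Of 36 signalling genes 8 started in a broad domain, and in CAST-/129- Socs3 fell, Id2 rose and 6 did not pass, with 6 of the 8 below wild type. Over all 388 domain genes outside the repeats, 11 fell and 6 rose there. Socs3, the feedback inhibitor of LIF and Stat3 signalling, had 47.0 FPKM in wild type against 22.1, 16.4 and 9.85 in the mutants. Id2, an inhibitor of basic helix-loop-helix factors, had 2.98 FPKM in wild type against 62.6, 46.5 and 22.4 in the mutants, so that the monoallelic clones were above the biallelic clone. Smad7 and Spry2, inhibitors of TGF-beta and of receptor tyrosine kinase signalling, had 45.9 and 56.6 FPKM in wild type and 14.3 and 27.8 in CAST-/129-. Tdgf1, a Nodal co-receptor, had 154 FPKM in CAST-/129- against 209 in wild type. Dusp6, Fgfr2 and Hes1 had log2 ratios of -0.49, 0.23 and -0.41 there.

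The other genes that fell in CAST-/129- were Gm7325, Zfp36l1, Vegfa and Slc7a5. Gm7325 had 84.5 FPKM in wild type against 15.6, 11.01 and 6.72 in the mutants. Slc29a1, which shares its 11 kb domain and has a start 2309 bases away, had 61.8, 51.2, 38.1 and 24.8. The neighbours thus differed in size of change within the same domain. Zfp36l1 had 85.2 FPKM in wild type and 32.2, 28.3 and 17.4 in the mutants, and Vegfa, the angiogenic growth factor, had 34.5 and 11.05, 9.73 and 5.51. Slc7a5, an amino acid transporter gene on chromosome 8, had 169 FPKM in wild type and 76.2, 49.2 and 43.8 in the mutants. Its domain had the lowest H3K27ac of the 11 fallen genes, with 4.81-fold in F123 and 3.53-fold in J1.

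A further 6 genes were past 3-fold downward only in monoallelic clones, and whether they differed from the biallelic clone could not be tested. Inhbb, which codes for an activin subunit, had 31.3 FPKM in wild type against 1.89, 0.582 and 12.7 in the mutants. Atf5, a stress-response transcription factor gene, had 47.9 FPKM in wild type and 10.9, 10.9 and 23.2 in the mutants. Slc1a5, a glutamine transporter gene, had 51.3 and 12.1, 14.4 and 15.02. Atf5, Slc1a5 and Inhbb were past 3-fold in each monoallelic clone. Slc1a5 was close to the threshold of 1.585 in size on both sides. Its log2 ratio was -1.586 in CAST-/129+ and -1.54 in CAST-/129-. Fzd5, a Wnt receptor gene, Marcks, a gene of an actin-linked membrane protein, and Pitpnc1, a phosphatidylinositol transfer protein gene, passed in CAST+/129- alone, with log2 ratios of -1.96, -2.12 and -1.67. In CAST-/129+ they had -1.01, -1.42 and -1.45, and in CAST-/129- -1.51, -1.37 and -1.10, short of the threshold of 1.58 in size. Atf5, Slc1a5, Fzd5, Marcks, Pitpnc1 and Slc7a5 were named after their values were seen, as members of counts.

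The 6 genes that rose in CAST-/129- outside the repeats were Cldn6, Slc5a5, Tnfrsf12a, Id2, Fst and Ccnd1. Cldn6, an epithelial tight junction protein gene, had 1.76 FPKM in wild type against 27.9, 81.8 and 59.7 in the mutants. Tnfrsf12a, the receptor of the cytokine TWEAK, had 2.76 FPKM and 27.8, 18.5 and 31.9. These genes share a 7 kb domain on chromosome 17 with H3K27ac near the 5-fold limit in both lines (5.03-fold and 5.35-fold). Slc5a5, the sodium iodide symporter, had 0.137 FPKM from 10 alignments in wild type and 5.04, 9.02 and 23.5 in the mutants, and it starts in an 8 kb domain. Fst, an activin antagonist, had 2.88 FPKM and 4.48, 9.89 and 17.6. Ccnd1, which codes for cyclin D1, had 22.1 FPKM in wild type, 21.7 and 25.6 in the monoallelic clones and 75.7 in CAST-/129-. All but Ccnd1 were below 3 FPKM in wild type, while the 11 fallen genes had between 34.5 and 185 FPKM. This contrast is partly set by the threshold, as a gene low in wild type cannot fall by 3-fold with 4 added to FPKM.

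H3K27ac of the wild type domain and the RNA ratio in the mutants were related across genes. Spearman's rho between F123 H3K27ac and the log2 ratio over 334 protein-coding genes was -0.23 in CAST+/129-, -0.27 in CAST-/129+ and -0.37 in CAST-/129-. Genes are not independent replicates, and the ratio contains the wild type level that itself went with H3K27ac. In CAST-/129-, 162 of 267 genes in domains over 5-fold in both lines were below wild type, with a median of -0.09. In domains at most 5-fold in both lines 24 of 39 genes were above wild type, with a median of 0.09. Of 11476 protein-coding genes that started in other runs, 5979 were below and 5303 above wild type there, with a median of -0.01. Over all 7185 genes with a mean of at least 10 FPKM the median was -0.07. Whether the domain genes differ from these was not tested. The 11 fallen genes had domains of 4.81-fold to 88.4-fold F123 H3K27ac, with a median of 42.6-fold, and the 6 risen genes of 1.92-fold to 22.2-fold, with a median of 5.03-fold. Genes low in wild type cannot be among the fallen, so this contrast is also partly set by the threshold.

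**Figure D5:**
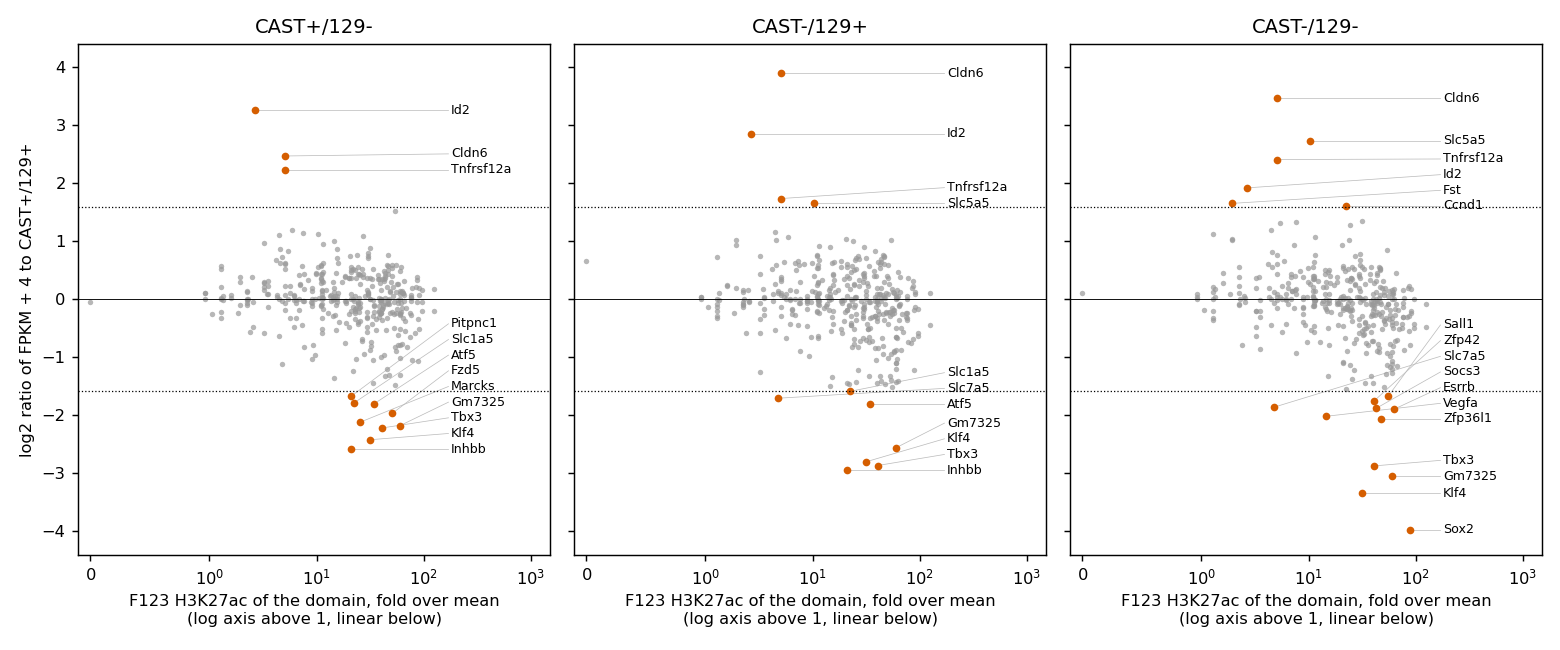
Log2 ratio of FPKM plus 4 to wild type in each mutant clone (y) against the F123 H3K27ac of the gene's domain (x), for 388 genes outside the repeats, with dotted lines at 3-fold and the genes past them in orange and named. In CAST-/129- the ranges overlap: risen genes lie between 1.92-fold and 22.2-fold H3K27ac, and fallen genes between 4.81-fold and 88.4-fold. They also overlap in CAST-/129+, with 4 risen genes between 2.67-fold and 10.4-fold and 7 fallen genes between 4.81-fold and 59.8-fold. In CAST+/129- they do not, with risen genes between 2.67-fold and 5.03-fold and 9 fallen genes between 20.8-fold and 59.8-fold. Only 3 genes rose there, of which Cldn6 and Tnfrsf12a share the same domain.

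The ribosomal protein, housekeeping and chromatin genes of the lists that started in the domains did not pass the threshold in any clone. The 13 ribosomal protein genes, of 83 measured, were higher in all 3 mutants, with median log2 ratios of 0.44, 0.63 and 0.45 that lay near those of the whole list (0.40, 0.63 and 0.45). The 6 of 24 housekeeping genes with a broad domain, Eno1, Pkm2, Eef1a1, Eef2, Tubb5 and Hsp90ab1, had a median of 0.43, 0.44 and 0.38. Higher ratios were not particular to these lists. Over all genes with a mean of at least 50 FPKM the medians were 0.23, 0.24 and 0.12. The part of library depth in these shifts was not tested. Of 38 regulators of DNA methylation and chromatin, Arid1a, Trim28, Jarid2 and Cbx7 started in broad domains. Their largest change in CAST-/129- was that of Jarid2, a Polycomb-associated protein gene, from 66.8 to 37.8 FPKM, within 3-fold. Of 342 genes on the Zfp list, which does not hold Zfp36l1, 12 were in the domains and 1, Zfp42, fell in CAST-/129-, where 2.84% of domain genes did.

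Starts in the domains were few over all genes, 410 of the 31498 measured. None of 50 neural and ectodermal factors, 39 Hox genes or 66 histone genes started in a broad domain, although 36, 20 and 21 of them started in a shorter run. Among 47 mesodermal and endodermal factors 2 did. Whether these counts differ from the share over all genes was not tested. Meis2, a homeobox factor, had F123 H3K27ac of 6.18-fold in its domain. It had 2.23 FPKM in wild type against 0.487, 0.653 and 0.636 in the mutants, too low to pass 3-fold on the scale used.

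The repeat-rich domains held most of the genes past 3-fold upward. All 14 measured genes in 3 of them, on chromosomes 9 and 2, were past 3-fold upward in every mutant, and with the 10 domains kept in, the count of domain genes up was 17, 18 and 20. Gm10800 had 74.2 FPKM in wild type against 1173, 2155 and 1064 in the mutants. Gm10801 had 14.4 and 353, 640 and 307, and Gm16869 had 14.2 and 323, 437 and 202. Without the added 4, the FPKM of the 14 genes was higher by 13.02-fold to 25.2-fold in CAST+/129-, 22.8-fold to 51.3-fold in CAST-/129+ and 8.94-fold to 21.4-fold in CAST-/129-. They share near-identical copies in the genome, so that the locus their alignments came from is uncertain. In the 77 kb domain, Sfi1 had 7.94 FPKM in wild type and 12.8, 15.2 and 16.4 in the mutants, and Pisd-ps1 had 56.2 and 64.4, 56.4 and 77.5.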

How the data were processed

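ChIP-seq of H3K4me3 and H3K27ac in F123 cells, of H3K27ac in J1 cells and strand-specific poly(A)+ RNA-seq of 4 F123 clones were analysed, with 1 library each. The authors deposited aligned positions on mm9, made with Bowtie for ChIP-seq and Novoalign for RNA-seq according to the submitters' processing notes, where each distinct position carries the counts of reads that shared it. Versions are not given in the sources used here. The labels name an Abcam antibody against H3K4me3 and the methods of the study a Millipore one. Neither an input library nor alleles were used.

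Distinct alignments were the unit. H3K4me3 5′ ends were counted in 1000-base bins (autosomal mean 2.80, so that an enriched bin held at least 15), and H3K27ac in a domain was divided by the autosomal mean of its library. RNA alignments were counted on the sense strand by midpoint in exonic bases of 1 gene of GENCODE M1, which is on NCBIM37 (mm9), over 31498 genes with at least 200 such bases. Alignments on these genes set the library size for FPKM. A value of 4 was added to FPKM before log2 ratios were taken, and 3-fold was the threshold, following the study's methods, and no test was possible with 1 library per condition. Intervals are exact 95% Poisson or binomial intervals, and a count of 0 allows 3 counts. Distinct alignments numbered 7108751 for H3K4me3, 1576875 and 7743500 for H3K27ac in F123 and J1, and 7557984 to 33684661 for RNA.

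Genes named are those that start in the 10 longest domains, list members with a start in a domain, the 8 largest changes each way in CAST-/129- and the 3 largest in each monoallelic clone, genes of the 5 domains with the highest and the 5 with the lowest F123 H3K27ac, and ends of ranges. Others are marked as chosen after their values were seen, and some named by the rule are not reported here. Domains, lists and rules were chosen with earlier results of these data known. The domain calls and the 3-fold rule were tested on simulated data. Scripts ran under Python 3.11.15 with scipy 1.17.1, pandas 2.3.3, numpy 2.4.6 and matplotlib 3.10.9.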

Additional observations from a re-analysis of the deposited data

How the results depend on the processing

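No paired analysis was possible because each condition had 1 library, and leaving out a replicate was not possible for the same reason. Of 137 values recomputed under 16 alternatives, 110 stayed within 1.5 times of the count or within the 95% interval of the median and 27 did not. Which regions count as broadest depended on the run rule: 116 of the 300 domains were met again at a threshold of 10 times the mean, 164 with no gap joined, 111 with gaps of up to 3 bins, 179 with bins shifted by 500 bases and 265 with H3K4me3 reads before collapsing.

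Against 24.3-fold F123 H3K27ac, 12.7-fold J1 H3K27ac and 15.7 FPKM over all 410 genes, at 10 times the mean the medians were 43.2-fold F123 H3K27ac, 17.5-fold J1 H3K27ac and 22.5 FPKM in wild type. With no gap joined they were 34.1-fold, 15.9-fold and 25.3 FPKM, and with gaps of up to 3 bins 11.6-fold, 8.04-fold and 10.8 FPKM, with 3 genes down in CAST+/129-. With the 150 longest runs, by construction fewer, 218 genes started in the domains, 126 domains passed 5-fold in F123 and 124 in J1, the medians were 30.4-fold and 15.6-fold, and 5 and 4 genes were down in CAST+/129- and CAST-/129+. Median wild type RNA was 20.4 FPKM over protein-coding genes alone and 10.4 FPKM from reads before collapsing. A pseudo-value of 1 gave 14 and 15 genes down in CAST+/129- and CAST-/129+, and a 2-fold threshold gave 25, 31 and 30 down in CAST+/129-, CAST-/129+ and CAST-/129-. Without the repeat-rich domains, an alternative chosen after seeing the data, 3, 4 and 6 genes were up in CAST+/129-, CAST-/129+ and CAST-/129- in place of 17, 18 and 20, and the counts down were 9, 7 and 11 either way. Outside chromosome 8, 9, 6 and 8 genes of the other domains were down and 3, 3 and 5 up. The causes were not tested beyond what these settings leave out.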

Other observations

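The sex chromosomes were outside the rule. By the same limits, 423 runs were found on the X, 4 of them of at least 5 kb, and 22 on the Y, 5 of them of at least 5 kb. The longest on the X was 17 kb at Gm15247 (chrX:166424001-166441000), with 14.2-fold H3K4me3 and H3K27ac of 39.2-fold in F123 and 13.9-fold in J1. Bcorl1, a co-repressor gene, had a 5 kb run with 9.28-fold H3K4me3, 3.20-fold F123 H3K27ac and 2.35-fold J1 H3K27ac.

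Some domains without an annotated protein-coding start had much H3K27ac. The 8 kb domain of Malat1, a long noncoding RNA, had 29.6-fold in F123 and 15.5-fold in J1, and Malat1 had 360 FPKM in wild type against 288, 325 and 486 in the mutants, listed as in the report with CAST-/129- last. The 5 kb domain at Mir130a had 73.0-fold in F123 and 32.3-fold in J1. A 5 kb run 5582 bases from the start of Cdkn1b, a cell cycle inhibitor gene, had 50.3-fold and 23.3-fold, and a 5 kb run 1824 bases from the start of Kdm6b, a histone demethylase gene, had 43.2-fold and 25.4-fold. These 4 domains were chosen after their values were seen.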
